A study of Vitis vinifera with 60 samples.

Results

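Lipoxygenases add oxygen to the polyunsaturated fatty acids linoleic and linolenic acid and so make fatty acid hydroperoxides. Hydroperoxide lyase splits these hydroperoxides into short aldehydes, the green leaf volatiles that give crushed leaves and unripe fruit their grassy smell, and other enzymes use the same hydroperoxides to make the hormone jasmonate. In grape berries the aldehydes and the alcohols made from them are part of the aroma of must and wine. Described here are 10 of the 29287 rows of an expression table of grapevine berries. They were chosen by a fixed list of identifiers that names 9 of them lipoxygenases, VIT_06s0004g01510 among them as LOXA, and VIT_12s0059g01060 as hydroperoxide lyase (HPL).

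RNA was sequenced from the pericarp, taken as the berry without its seeds, of the white grapevine (Vitis vinifera) cultivars Garganega, Glera, Moscato bianco, Passerina and Vermentino, all grown in 1 vineyard in 1 season. Berries were picked when pea-sized (Pea), when they began to touch each other (Touch), when soft (Soft) and when ripe for picking (Harv). Every cultivar had 3 libraries at a stage, and the 20 values of a gene are the authors' means over these. The unit is FPKM, fragments per length of transcript and per number of mapped fragments, so levels of different genes can be set side by side. The labels name no treatment.

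The files do not pair identifiers with names, and 0 of the 10 matched the RefSeq gene table of assembly ASM3070453v1. The names above therefore rest on the list, each gene's preferred fatty acid position is left out, and the tissue label could not be checked against marker genes. All 10 had a row of their own, none joined to another identifier. Of the 10, 8 reached 1 FPKM in at least 1 of the 20 columns and were tested, as were 20833 rows in all. VIT_06s0004g01480 and VIT_06s0004g01500 did not. VIT_13s0064g01480 passed that minimum only through Pea and Touch columns. Errors are SD over the 5 cultivars of a stage (n = 5), since the spread between libraries and the depth are unknown. In a whole pericarp, a change in the number of cells that use a gene cannot be told apart from a change in RNA per cell.

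Across development the group split. LOXA and HPL rose, and 5 other lipoxygenases fell, 3 of them from Touch to Soft under every alternative run. A gene was called when limma gave a Benjamini-Hochberg adjusted p under 0.05 and a change of at least 2-fold on the scale of log2(FPKM + 1). From Touch to Soft, the step that holds the onset of ripening, 7 of the 8 tested members were called, where 18.8% of all tested genes were. Of these, 2 were higher (3.59% of tested genes) and 5 lower (15.2%). From Pea to Touch 1 member was called, a rise (7.91% of tested genes in either direction, 2.14% upwards). From Soft to Harv 1 was called, a fall (7.20% in either direction, 5.15% downwards). Between Pea and Harv 7 were called, where 34.3% of tested genes were, 2 higher (7.30%) and 5 lower (27.0%). From Touch to Soft and from Pea to Harv, the 5 lower include VIT_13s0064g01480, which was tested only because of its Pea and Touch values. Its falls are thus partly set by the filter and add no independent support. Without the 2-fold limit, 4 members passed from Pea to Touch (32.9% of tested genes) and 2 from Soft to Harv (36.3%). The median log2 change of the 8 tested members from Touch to Soft was -1.05, and that of all tested genes was -0.31. The members' median falls between VIT_13s0064g01480 (-1.07) and VIT_14s0128g00780 (-1.02), so it too is partly set by the filter. It also hides the split, since single members ran from 2.93 (LOXA) to -3.27 (VIT_09s0002g01080).

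**Figure D1:**
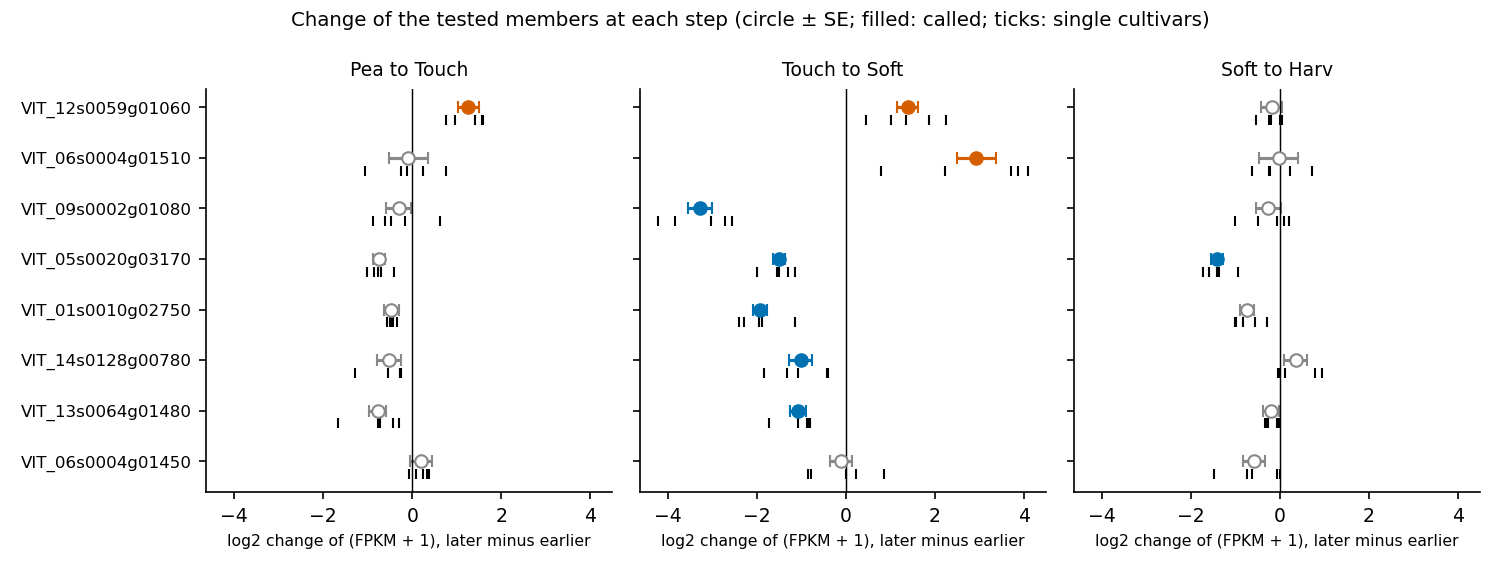
Change of the 8 tested members at each step, in log2(FPKM + 1), later minus earlier stage. Circles are limma estimates with SE bars and are filled where called, and ticks are the 5 single cultivars. From Touch to Soft 7 members were called, HPL and LOXA (VIT_06s0004g01510) to the right of 0 and 5 lipoxygenases to the left.

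LOXA ranked higher in ripe berries than in green ones. Of the 29287 rows it held ranks 2576 to 7681 at Pea and 1722 to 7826 at Touch. At Soft it held ranks 100 to 1500 and at Harv ranks 155 to 864. At Pea it stood at 18.5 FPKM in Glera, 38.6 in Vermentino, 53.6 in Moscato bianco, 57.0 in Garganega and 62.3 in Passerina. At Touch it stood at 18.1 FPKM in Vermentino, 22.0 in Glera, 52.2 in Garganega, 52.5 in Passerina and 91.4 in Moscato bianco. The green stages overlapped, with means of 46.0 ± 17.7 and 47.2 ± 29.5 FPKM, and the log2 change between them was -0.09 (SE 0.43, adjusted p = 0.908 by limma). The cultivars moved apart in this step: LOXA went 1.71-fold up in Moscato bianco, while Vermentino's Touch level was 0.468 times its Pea level.

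At Soft, LOXA stood at 88.1 FPKM in Vermentino, 159 in Moscato bianco, 332 in Glera, 694 in Passerina and 899 in Garganega. All 5 cultivars were higher than at Touch, but the groups overlapped, because Moscato bianco at Touch lay just above Vermentino at Soft. The log2 change was 2.93 (SE 0.43, adjusted p = 4.13e-05 by limma), and the call held in each of the 16 alternatives run. The size of the rise differed between cultivars. It was 17.2-fold in Garganega, 15.1-fold in Glera, 13.2-fold in Passerina, 4.88-fold in Vermentino and 1.74-fold in Moscato bianco. With 1 mean per cultivar and stage, this difference could not be tested. In Garganega at Soft, LOXA held rank 100 of the 29287 rows, and in Vermentino at Soft rank 1500.

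At Harv, LOXA stood at 147 FPKM in Vermentino, 186 in Moscato bianco, 287 in Glera, 584 in Garganega and 586 in Passerina. All 5 values lay above all 5 Pea values, as they did for 12.9% of tested genes, HPL among them, and the log2 change from Pea was 2.82 (SE 0.43, adjusted p = 2.96e-05). It was 3.50 with columns scaled to equal medians. From Soft to Harv the log2 change was -0.02 (SE 0.43, adjusted p = 0.987). LOXA went up in Vermentino (1.67-fold) and Moscato bianco (1.17-fold), while Garganega at Harv stood at 0.650 times its Soft level, Passerina at 0.843 times and Glera at 0.867 times. The cultivars thus peaked at different stages, 3 at Soft and 2 at Harv. The lowest and the highest cultivar differed 3.37-fold at Pea, 5.06-fold at Touch, 10.2-fold at Soft and 3.97-fold at Harv, with Garganega and Passerina highest at both ripe stages.

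HPL, the enzyme that acts after lipoxygenase, rose in 2 steps. At Pea it stood at 47.7 FPKM in Passerina, 51.2 in Vermentino, 52.1 in Garganega, 53.8 in Moscato bianco and 86.0 in Glera. At Touch it stood at 89.3 FPKM in Garganega, 100.1 in Vermentino, 129 in Passerina, 165 in Moscato bianco and 256 in Glera. Every Touch value lay above every Pea value, which held for 7.19% of tested genes, and the log2 change was 1.26 (SE 0.23, adjusted p = 0.000799 by limma). HPL was the only member called in this step.

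At Soft, HPL stood at 257 FPKM in Vermentino, 262 in Passerina, 349.9 in Glera, 426 in Garganega and 607 in Moscato bianco. Every Soft value lay above every Touch value, which held for 4.18% of tested genes. The log2 change from Touch was 1.39 (SE 0.23, adjusted p = 0.000129 by limma). The rise was 4.78-fold in Garganega, 3.68-fold in Moscato bianco, 2.56-fold in Vermentino, 2.03-fold in Passerina and 1.37-fold in Glera. Glera, with the smallest rise here, had been highest at both green stages. When limma tested against 2-fold in place of no change, HPL was called in neither step (adjusted p = 1 from Pea to Touch and 0.499 from Touch to Soft).

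At Harv, HPL stood at 223 FPKM in Vermentino, 271 in Passerina, 296 in Garganega, 297 in Glera and 607 in Moscato bianco. Moscato bianco stood apart, and the other 4 cultivars lay within a narrow range. From Soft the log2 change was -0.18 (SE 0.23, adjusted p = 0.592), and from Pea it was 2.46 (SE 0.23, adjusted p = 1.83e-07), or 3.14 with equal medians. From Pea to Harv, HPL went up 11.3-fold in Moscato bianco and between 3.45-fold (Glera) and 5.68-fold (Garganega and Passerina) in the others. HPL held between rank 138 and rank 509 of the 29287 rows at Harv.

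LOXA and HPL both rose from Touch to Soft, but the cultivars ranked differently for them. The ratio of HPL to LOXA was lowest in Passerina at Soft, at 0.377, and Garganega stood at 0.474. In Moscato bianco at Soft it was 3.81. At Harv it was again lowest in Passerina (0.463) and highest in Moscato bianco (3.25). Across the 20 columns, which share stages and cultivars, Pearson's r of LOXA and HPL in log2(FPKM + 1) was 0.657, and after the stage means were taken off it was -0.18.

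**Figure D2:**
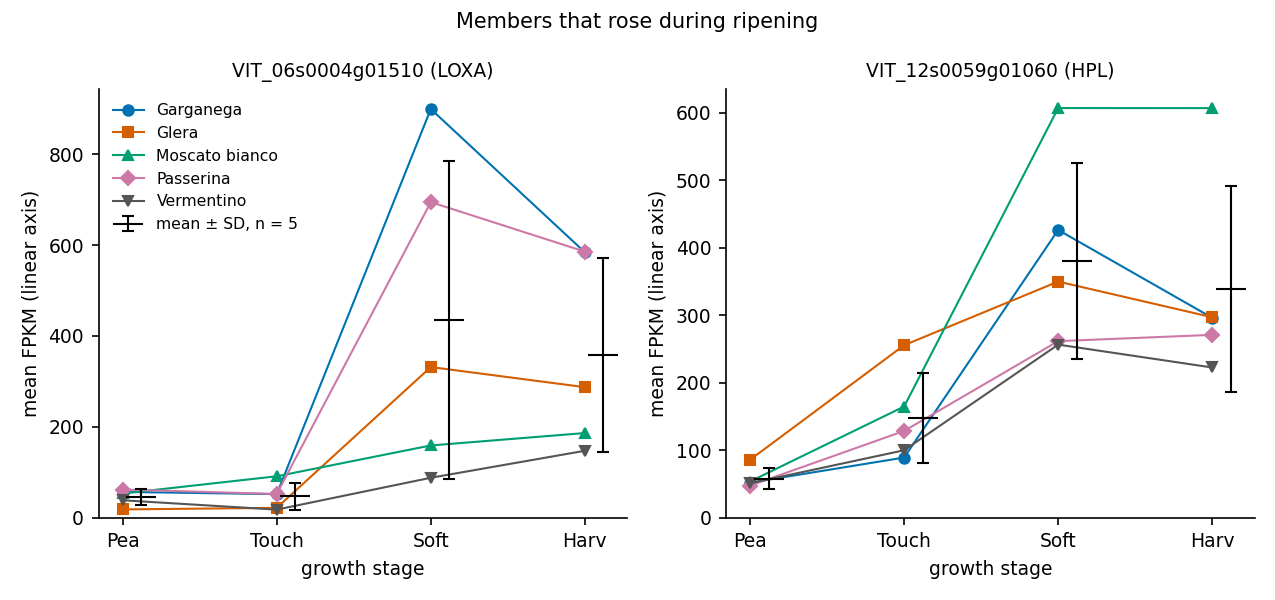
FPKM of LOXA (left) and HPL (right) by growth stage, 1 line per cultivar, with the mean ± SD of the 5 cultivars in black. LOXA reached 899 FPKM in Garganega at Soft and stayed at 159 in Moscato bianco, while HPL reached 607 in Moscato bianco.

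Of the lipoxygenases that fell, VIT_09s0002g01080 was the most abundant. At Pea it stood at 42.5 FPKM in Passerina, 70.6 in Glera, 72.6 in Vermentino, 89.1 in Garganega and 96.4 in Moscato bianco. At Touch the levels were 38.1 FPKM in Passerina, 38.8 in Vermentino, 50.2 in Glera, 62.3 in Moscato bianco and 138 in Garganega. Garganega alone was higher at Touch than at Pea (1.55-fold), and the log2 change was -0.30 (SE 0.28, adjusted p = 0.434 by limma). At Soft it stood at 2.41 FPKM in Moscato bianco, 3.85 in Vermentino, 4.93 in Passerina, 7.66 in Glera and 8.76 in Garganega. The groups were far apart, and the log2 change was -3.27 (SE 0.28, adjusted p = 2.38e-07). Moscato bianco had the steepest fall, with 25.9 times as much at Touch as at Soft, and Glera the shallowest, with 6.55 times. At Harv the levels ran from 2.93 to 5.99 FPKM, and the log2 change from Soft was -0.25 (SE 0.28, adjusted p = 0.526).

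VIT_05s0020g03170 was lower at each successive stage in all 5 cultivars. At Pea it was even between cultivars, at 36.4 FPKM in Passerina, 36.7 in Vermentino, 37.0 in Glera, 38.1 in Moscato bianco and 47.4 in Garganega. At Touch it stood at 18.4 FPKM in Moscato bianco, 20.1 in Glera, 21.0 in Passerina, 22.3 in Vermentino and 35.3 in Garganega. The groups did not overlap, which in this direction held for 8.46% of tested genes, and the gene passed the adjusted p but not the limit of 2-fold (log2 change -0.75, SE 0.13, adjusted p = 0.000614 by limma). At Soft it stood at 4.53 FPKM in Passerina, 6.40 in Glera, 6.86 in Moscato bianco, 9.56 in Vermentino and 11.4 in Garganega. At Harv it stood at 1.25 FPKM in Glera, 1.87 in Passerina, 1.97 in Moscato bianco, 3.10 in Garganega and 3.10 in Vermentino. It fell by 1.50 to Soft (SE 0.13, adjusted p = 3.82e-07) and by 1.40 to Harv (SE 0.13, adjusted p = 7.23e-06), without overlap in either step (8.60% of tested genes fell to Harv without overlap). It was the only member called from Soft to Harv. That call was lost with a pseudocount of 5 (log2 change -0.79, adjusted p = 3.88e-05) and when the test itself was set against 2-fold (adjusted p = 0.263). Pea levels were 11.9 times the Harv level in Vermentino and 29.6 times in Glera.

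VIT_01s0010g02750 followed a like course. At Pea it stood at 23.0 FPKM in Moscato bianco, 26.2 in Garganega, 29.3 in Vermentino, 32.1 in Glera and 38.7 in Passerina. At Touch it stood at 15.2 FPKM in Moscato bianco, 18.1 in Garganega, 20.8 in Vermentino, 23.5 in Glera and 30.2 in Passerina. The order of the cultivars was the same at both green stages. At Soft it stood at 3.08 FPKM in Vermentino, 3.37 in Moscato bianco, 4.01 in Glera, 7.09 in Passerina and 7.68 in Garganega. It fell by 1.94 from Touch to Soft (SE 0.16, adjusted p = 1.94e-07 by limma), with no overlap. At Harv it lay between 1.84 FPKM (Glera) and 3.32 FPKM (Garganega), and the log2 change from Soft was -0.73 (SE 0.16, adjusted p = 0.00264), short of 2-fold.

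These 3 genes kept their calls from Touch to Soft in each of the 16 alternatives. With columns scaled to equal medians, which moved the median change of all genes from -0.31 to 0.07, their log2 changes were -2.79 (VIT_09s0002g01080), -1.003 (VIT_05s0020g03170) and -1.46 (VIT_01s0010g02750). With VIT_13s0064g01480 they made 4 members whose Soft values all lay below their Touch values, as did those of 27.7% of tested genes. VIT_13s0064g01480 passed the minimum only through Pea and Touch columns, so its place here is partly set by the filter. Pearson's r among the 3 over the 20 columns was 0.913 to 0.932, and with LOXA it was -0.729 to -0.755. Once stage means were taken off, r among the 3 was 0.00654 to 0.47. Stage held 92.5%, 95.2% and 94.0% of their variance in log2(FPKM + 1), in the order above, and 71.2% of that of LOXA. The median over all tested genes was 62.1%.

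**Figure D3:**
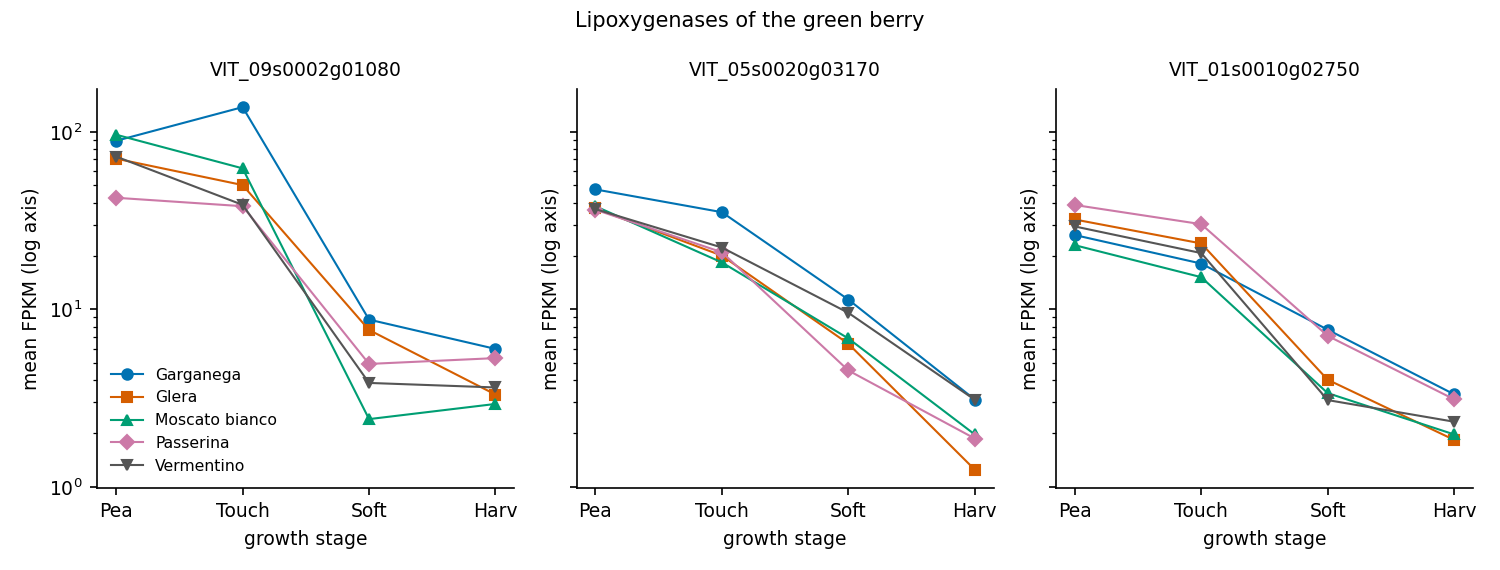
FPKM of VIT_09s0002g01080, VIT_05s0020g03170 and VIT_01s0010g02750 by growth stage on a shared log axis, 1 line per cultivar. All 3 dropped between Touch and Soft in every cultivar. VIT_05s0020g03170 went on down to 1.25 to 3.10 FPKM at Harv, while VIT_09s0002g01080 stayed at 2.93 to 5.99 FPKM.

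The makeup of the summed FPKM of the listed lipoxygenases changed with the stage. Other lipoxygenase rows, if any, could not be identified. LOXA held 22.7% ± 7.9 of the summed FPKM of the 9 lipoxygenase members at Pea and 27.6% ± 13.0 at Touch. It held 92.3% ± 6.4 at Soft and 95.9% ± 3.2 at Harv. At Soft the lowest share, 81.7% in Vermentino, lay well above the highest at Touch, 47.0% in Moscato bianco. The 3 falling genes named above together held 72.2% ± 7.7 at Pea and 3.01% ± 1.6 at Harv. LOXA was the highest lipoxygenase in 1 cultivar at Pea (Passerina), in 2 at Touch and in all 5 at Soft and Harv.

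The sum over the 9 lipoxygenases did not move the same way in all cultivars. At Pea it was even, at 199 ± 24.3 FPKM. At Harv it was 599 FPKM in Passerina, 597 in Garganega and 294 in Glera, each above its own Pea sum of 190.4, 226 and 167 FPKM. In Moscato bianco it was 195 FPKM against 222 at Pea, and in Vermentino 163 against 192. Without LOXA, the sum went from 153 ± 16.6 FPKM at Pea to 11.4 ± 3.8 at Harv, lower in all 5 cultivars. No test is given for sums over chosen members.

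**Figure D4:**
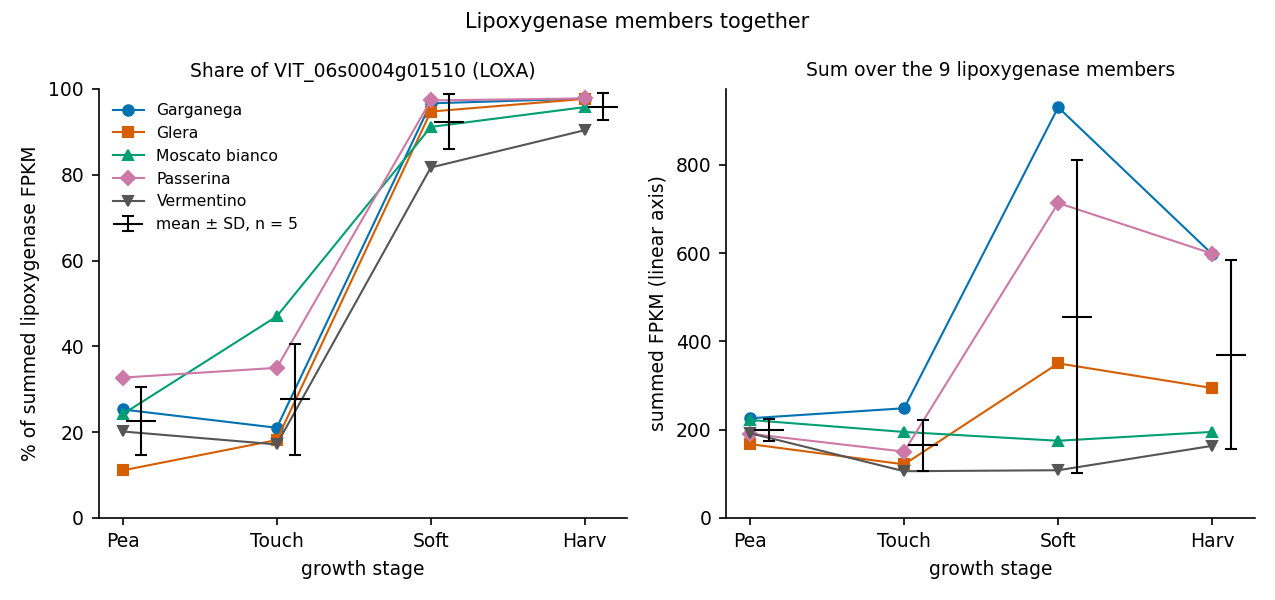
Share of LOXA in the summed FPKM of the 9 lipoxygenase members (left) and that sum (right) by growth stage, 1 line per cultivar, with the mean ± SD in black. The share passed 81% in every cultivar at Soft, while the sum at Harv lay above that at Pea in Garganega, Passerina and Glera and below it in Moscato bianco and Vermentino.

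The other lipoxygenases were low. In 3 of them, VIT_14s0128g00780, VIT_06s0004g01450 and the untested VIT_06s0004g01500, cultivar held more of the variance in log2(FPKM + 1) than stage did. The share of all tested genes for which this held was not computed, so the count is a description. VIT_14s0128g00780 stood at 0.889 FPKM in Moscato bianco, 3.39 in Garganega, 4.91 in Passerina, 5.33 in Glera and 11.5 in Vermentino at Pea. At Touch it ran from 0.567 FPKM (Moscato bianco) to 4.15 (Vermentino), and at Soft from 0.165 to 2.91 in the same cultivars. Vermentino was highest and Moscato bianco lowest at all 4 stages. At Harv it stood at 0.141 FPKM in Moscato bianco, 0.311 in Glera, 0.728 in Garganega, 2.38 in Passerina and 6.56 in Vermentino. Cultivar held 53.3% of its variance and stage 35.1%, while the medians over all tested genes were 17.8% and 62.1%.

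VIT_14s0128g00780 fell by 1.02 from Touch to Soft (SE 0.26, adjusted p = 0.00366 by limma), in all 5 cultivars but with overlap. That call was lost in 8 of 16 alternatives, among them equal medians (log2 change -0.72, adjusted p = 0.0391) and the fits without Glera (-0.81, adjusted p = 0.0125) and without Passerina (-0.94, adjusted p = 0.0263). The adjusted p over the alternatives ran from 0.00172 to 1. Its call from Pea to Harv (log2 change -1.18, SE 0.26, adjusted p = 0.000859) was lost in 6, among them equal medians (-0.77, adjusted p = 0.0187) and the fit without Glera (-0.90, adjusted p = 0.00472). From Soft to Harv the gene went up 2.52-fold in Passerina and 2.26-fold in Vermentino, but the fitted change of 0.36 did not pass (SE 0.26, adjusted p = 0.305).

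VIT_06s0004g01450, whose identifier lies close to that of LOXA, had the cultivars at the ends of the order exchanged. Moscato bianco was highest at all 4 stages, with 4.40 FPKM at Pea, 5.33 at Touch, 2.52 at Soft and 1.13 at Harv. Vermentino was lowest, with 0.0568 FPKM at Pea and 0.00554 at Touch, and was listed at 0 at Soft and Harv. In Garganega the gene went from 0.417 FPKM at Pea to 0.836 at Touch and 2.33 at Soft, then stood at 0.199 at Harv. In Passerina it stood at 0.385, 0.754, 1.06 and 0.336 FPKM at the successive stages, and in Glera at 0.699, 0.815, 0.0528 and 0.00888. Cultivar held 71.0% of its variance and stage 11.1%. It was not called in any of the 4 comparisons, with adjusted p between 0.0913 (Soft to Harv) and 0.733 (Touch to Soft).

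Of the 8 tested members, VIT_14s0128g00780, VIT_06s0004g01450 and VIT_05s0020g03170 had 1 cultivar highest at all 4 stages, as did 14.9% of all tested genes. For VIT_05s0020g03170 that cultivar was Garganega. VIT_14s0128g00780 and VIT_06s0004g01450 had a Pearson's r of -0.674 over the 20 columns after stage means were taken off, the most negative of the 28 pairs of tested members. Moscato bianco, where VIT_06s0004g01450 was highest, had the smallest rise of LOXA from Touch to Soft (1.74-fold). Vermentino, where VIT_06s0004g01450 was lowest, had the next smallest (4.88-fold). Pearson's r of VIT_06s0004g01450 and LOXA after stage means were taken off was 0.396, and no link between them was tested.

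**Figure D5:**
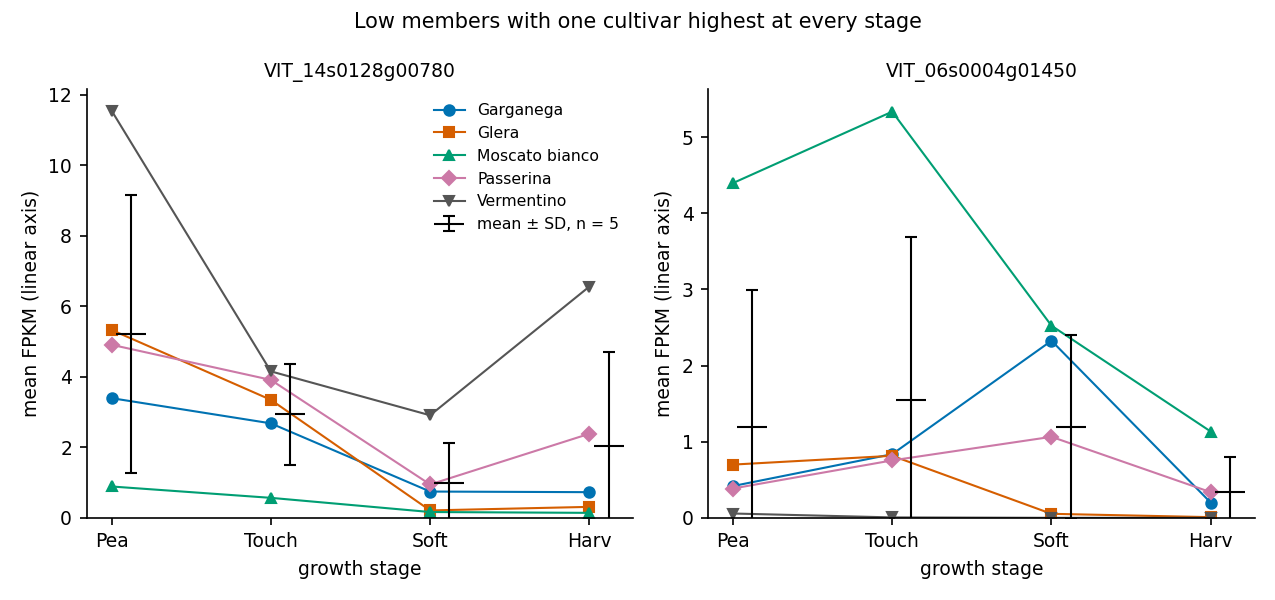
FPKM of VIT_14s0128g00780 (left) and VIT_06s0004g01450 (right) by growth stage, 1 line per cultivar, with the mean ± SD in black (bars end at 0 where the SD exceeds the mean). Vermentino was highest in the left panel and lowest in the right, and Moscato bianco the reverse.

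VIT_13s0064g01480 was a low gene of the youngest berries. At Pea it stood at 1.75 FPKM in Garganega, 2.69 in Vermentino, 2.72 in Glera, 4.99 in Passerina and 5.04 in Moscato bianco. At Touch it stood at 0.905 FPKM in Moscato bianco, 1.17 in Glera, 1.22 in Vermentino, 1.24 in Garganega and 3.45 in Passerina. At Soft it was at most 0.336 FPKM and at Harv at most 0.0824 FPKM, both in Passerina. The gene was tested only because of its Pea and Touch values, so a fall to Soft or Harv is partly set by the filter. Its log2 change was -1.07 from Touch to Soft (SE 0.19, adjusted p = 0.000186 by limma) and -2.05 from Pea to Harv (SE 0.19, adjusted p = 1.38e-07). The first of these calls was lost in 6 of 16 alternatives, among them equal medians (log2 change -0.88, adjusted p = 0.000699) and the fit without Passerina (-0.91, adjusted p = 0.00184). The pseudocount sets the size of the change at such levels: from Pea to Harv the log2 change was -4.73 with a pseudocount of 0.1 and -0.73 with a pseudocount of 5.

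The other 2 lipoxygenases with the stem VIT_06s0004g stayed at trace levels. VIT_06s0004g01480 ranged from 0.0135 to 0.298 FPKM and had its highest value at Pea in all 5 cultivars. VIT_06s0004g01500 ranged up to 0.465 FPKM, in Moscato bianco at Touch, and was listed at 0 in 3 of the 20 columns. Cultivar held 38.8% of its variance and stage 27.8%. LOXA, with nearby locus numbers, reached 899 FPKM. Whether the authors' counting split fragments between near-identical copies is not given in the sources used here, and without strand information overlapping genes cannot be told apart, so the trace values are uncertain.

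A list of 66 rows within 50 locus numbers of a member on the same stem was taken from the identifiers alone, and 51 of them were tested. From Touch to Soft, limma called 0 of the 51 higher (3.59% of all tested genes) and 10 lower (15.2%), with a median log2 change of -0.32 beside -0.31 for all tested genes. At an unadjusted p under 0.05 by limma, 4 were higher and 31 lower. The share of all tested genes under that rule was not computed, so these counts are not read as a trait of the neighbours. From Pea to Harv, 1 was called higher (7.30% of all tested genes) and 19 lower (27.0%). Of the 7 such rows near LOXA, the highest mean over the columns was 21.9 FPKM, where LOXA had 221 FPKM. Other genes of the pathway, such as allene oxide synthase, were not analysed here, because no identifier could be paired with a name.

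The rows most like LOXA and HPL over the 20 columns were found among 10502 others with a mean of at least 10 FPKM. For LOXA these were VIT_09s0002g05710 (Pearson's r = 0.938), VIT_04s0044g01230 (0.918) and VIT_17s0000g09230 (0.917). For HPL they were VIT_13s0064g01270 (0.955), VIT_16s0022g02230 (0.942) and VIT_17s0000g00570 (0.94). All columns share stages and cultivars, and the r are a description of these means. Being the highest of 10502, they are picked values, and r does not compare the size of a change. From Pea to Harv, mean FPKM went from 33.0 to 49.7 for VIT_17s0000g09230 and from 0.208 to 115 for VIT_04s0044g01230. For LOXA it went from 46.0 to 358.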

How the data were processed

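RNA was sequenced from 60 libraries, 3 for each of 20 combinations of cultivar and stage. The authors deposited 1 table of FPKM with 20 columns, each the authors' mean for 1 combination, per the file headers and the table's name. The tools listed are Cufflinks 2.0.2 and TopHat2 2.0.6, per the submitters' processing notes. What each did, on which genome and gene models, and whether means were taken before or after scaling is not given in the sources used here. Per the labels' protocols, the libraries were not directional. All 20 columns matched a group by name. Depth is unknown.

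Rows that reached 1 FPKM in any column were kept (20833 of 29287). Values were taken as log2(FPKM + 1), so changes of low genes are understated. limma 3.58.1 in R 4.3.3 was fitted with a trend on all kept rows, with terms for stage and cultivar, leaving 12 degrees of freedom. Cultivars are thus the replicates (n = 5), and p-values weigh the mean change between stages against how unevenly the cultivars changed. Benjamini-Hochberg adjustment ran over all kept rows. The fit was also run on simulated data with independent normal noise, no cultivar differences and few changed genes. That setting is simpler than these data, so the run cannot show how well the p-values hold here. Differences between cultivars have no test. The members and lists were chosen with earlier results of these data known, and all members are named. The 3 rows most like LOXA (the lipoxygenase with the highest mean) and HPL were taken by Pearson's r. The 16 alternatives changed the pseudocount, the filter, the scaling, the model, the rule for a call, or left out 1 cultivar. No sequences are shown, since none could be matched to the identifiers.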

Additional observations from a re-analysis of the deposited data

Results flagged for a closer look

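In 12 of the 40 sets of 1 member at 1 stage, the 5 cultivars held 1 value far from the rest by Dixon's criterion. About 2 such sets would be found if values were normally distributed. The criterion was applied to FPKM without a log, and the share of such sets over all tested genes was not computed. The 12 sets are therefore a description, and whether they are an excess was not tested. The sets are not independent, since a gene's stages share cultivars. All 12 were a highest value. Garganega stood apart for VIT_09s0002g01080 at Touch (138 FPKM, next 62.3), for VIT_05s0020g03170 at Pea (47.4 FPKM, next 38.1) and at Touch (35.3 FPKM, next 22.3), and for VIT_06s0004g01480 at Pea (0.298 FPKM, next 0.149). Passerina stood apart for VIT_13s0064g01480 at Touch (3.45 FPKM, next 1.24) and Harv (0.0824 FPKM, next 0.0168), and for VIT_06s0004g01480 at Harv (0.0609 FPKM, next 0.0236). Moscato bianco stood apart for VIT_06s0004g01450 at Pea (4.40 FPKM, next 0.699) and Touch (5.33 FPKM, next 0.836), and for HPL, VIT_12s0059g01060, at Harv (607 FPKM, next 297). Glera stood apart for HPL at Pea (86.0 FPKM, next 53.8), and Vermentino for VIT_14s0128g00780 at Soft (2.91 FPKM, next 0.946). The spread between the 3 libraries behind each mean is unknown, so whether 1 library set such a value was not tested.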

How the results depend on the processing

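Of 512 recomputed log2 changes (32 member changes under 16 alternatives), 469 kept direction and side of the threshold, 25 lost a call, 7 gained one and 11 changed sign. The sign changes were in changes that were never called. For LOXA from Soft to Harv the log2 change was 0.092 with equal medians, 0.061 with quantile normalization and 0.029 when scaled by all but the 100 most abundant genes, and -0.21 to 0.13 with 1 cultivar left out. For LOXA from Pea to Touch it was -0.30 to 0.16 with 1 cultivar left out. For VIT_06s0004g01450 from Touch to Soft it was 0.11 with equal medians, 0.24 with quantile normalization and -0.35 to 0.075 with 1 cultivar left out. The members called from Pea to Touch numbered 2 with a pseudocount of 0.1, 4 by the adjusted p alone and 0 in a test against a 2-fold change. From Soft to Harv the numbers were 2 with a pseudocount of 0.1, 2 by the adjusted p alone, 0 with a pseudocount of 5 and 0 against a 2-fold change. From Touch to Soft the test against a 2-fold change left 4. With 1 cultivar left out, 5 to 7 members were called from Touch to Soft and 6 to 7 from Pea to Harv. Except by the adjusted p alone, the share of all tested genes called under these settings was not computed. Some of the counts include VIT_13s0064g01480, whose falls to Soft or Harv are partly set by the filter. With 1 cultivar left out, the mean LOXA share was 20.2% to 25.6% at Pea and 22.8% to 30.3% at Touch. It was 91.1% to 95.0% at Soft and 95.4% to 97.3% at Harv. With equal medians, the same cultivar was highest in 38 of 40 sets of 1 member at 1 stage. The order of cultivars was not recomputed with cultivars left out. The fit pairs stages by cultivar, and without the cultivar term VIT_14s0128g00780 lost its calls from Touch to Soft (adjusted p = 0.133) and from Pea to Harv (adjusted p = 0.0635), the 2 calls this setting changed. No paired analysis was possible by library number because the columns are means over the libraries and carry no number. Unknown depth limits the members under 1 FPKM.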
